A study of Mus musculus with 8 samples.

Results

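Sympathetic ganglia of *Isl1* hypomorphic mouse embryos (*Isl1* f-neo/f-neo) were compared with those of wildtype embryos (*Isl1* +/+) at E14.5 (embryonic day 14.5), gene by gene. The comparison covered 13127 genes, chosen from the 13413 of the E14.5 table by leaving out 285 microRNA and small nucleolar RNA genes and any gene listed at 0 in wildtype, whose direction is open. The tables of both stages together name 14189 genes. The study sequenced dissected ganglia at 2 stages, the other being E11.5, where *Wnt1*-Cre;*Isl1* f/f embryos (CKO, with *Isl1* removed in the neural crest) were set against *Wnt1*-Cre;*Isl1* +/+ controls on a *Rosa26*-tdTomato reporter background. Each group held 2 libraries, and each library came from ganglia pooled over about 10 embryos of 1 genotype. The hypomorphic allele is carried by every cell of the embryo, a fluorescence microscope guided the dissection at E11.5 but is not named for E14.5, and the sex of the embryos is not given. The deposited table gives 1 combined FPKM value (mapped fragments scaled by transcript length and by library size) per genotype, with no read numbers. The depth is therefore unknown, no spread between libraries can be set beside a difference, and every ratio below has no replicate check.

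ISL1 is a LIM homeodomain transcription factor that sympathetic neurons express from shortly after they leave the neural crest. In these neurons it acts beside PHOX2A, HAND2, INSM1 and GATA3, the factors that install the noradrenergic program of TH and DBH. Sympathetic neuroblasts go on dividing while they already carry neuronal genes, and later separate into a noradrenergic majority and a cholinergic minority that makes VIP and acetylcholine. The f-neo allele keeps a neomycin cassette in the *Isl1* locus and lowers *Isl1* expression without deleting the gene.

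*Isl1* (mm9 chr13:117088478-117099896, minus strand) stood at 162 FPKM in wildtype and at 83.1 FPKM in hypomorphic ganglia, 51.3% of the wildtype level. All 10 of the genes taken as defining sympathetic neurons were present in both genotypes, with a summed level of 3956 FPKM in wildtype and 3341 FPKM in hypomorphic ganglia. Of 18 sensory neuron genes, 12 were not in the table, among them *Pou4f1*, *Neurog1*, *Isl2*, *Runx1*, *Runx3* and *Scn10a*, and the 6 that were summed to 14.7 FPKM in wildtype and 15.9 FPKM in hypomorphic ganglia. Of 12 genes of adrenal cortex, kidney and gonad, 3 were in the table, at a summed 7.73 and 8.58 FPKM. Of 9 epithelial genes, 4 were in the table, at 7.29 and 7.45 FPKM. The genes that mark the labelled tissue were thus present, and most of those in these 3 lists of neighbouring tissues were not in the table. Genes of other neighbours were nearly all in it, with 14 of 15 for fibroblasts and mesenchyme, 18 of 18 for endothelium and 13 of 14 for skeletal muscle.

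Most genes differed little between the genotypes. Ratios are given as log2 of hypomorph over wildtype, with 0.1 FPKM added to both values, and their median over all 13127 genes was 0.003. The quartiles were -0.11 and 0.12, and the outer 5% of genes on either side lay below -0.34 and above 0.43. At least 1.5-fold lower values were found for 211 genes (1.61% of those compared) and at least 1.5-fold higher values for 277 genes (2.11%), in all 3.72%. These shares are the background for every E14.5 list count at 1.5-fold below. The lists were chosen with earlier results of these data known, so a list count beside the background is a description and not a test. At 2-fold the counts were 53 lower (0.404%) and 37 higher (0.282%), so the side with more genes depends on the fold chosen. A value on either side of 0 is background: 49.3% of genes lay below and 50.7% above it.

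The side with more genes also differed between levels of wildtype expression. Genes were grouped by their wildtype value, which also enters the ratio, so the counts cannot show a dependence on level. Among 636 genes at 100 FPKM or more in wildtype, 12 were lower and 2 higher by at least 1.5-fold, and between 20 and 100 FPKM the counts were 27 and 18 of 4080. Between 5 and 20 FPKM they were 64 and 71 of 5187, and between 1 and 5 FPKM 108 and 113 of 3037. The table keeps a gene only if 1 genotype reaches 1 FPKM, so each of the 187 genes under 1 FPKM in wildtype had to be higher in the hypomorph, and 73 of them passed 1.5-fold. The same limit forced the 132 genes under 1 FPKM in the hypomorph to be lower, of which 52 passed 1.5-fold.

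**Figure D1:**
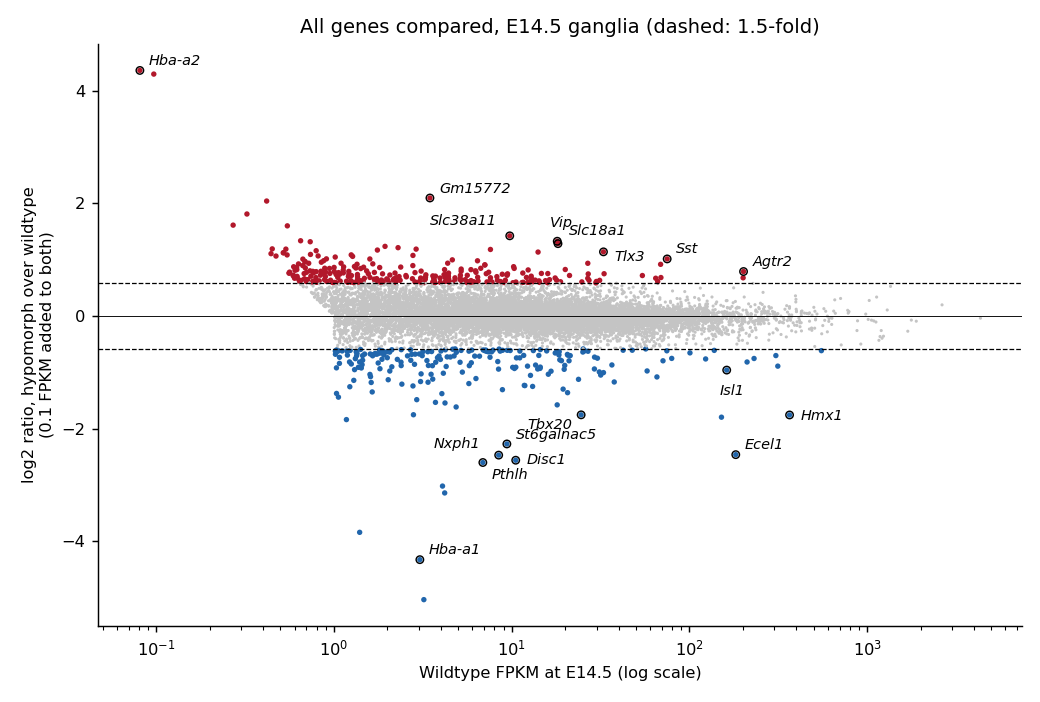
Each point is 1 of the 13127 genes, with its wildtype FPKM on a log axis and its log2 ratio of hypomorph over wildtype on the vertical axis. Blue points are the 211 genes at least 1.5-fold lower and red points the 277 at least 1.5-fold higher, and *Ecel1* and *Hmx1* stand out as abundant genes far below the dashed line.

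The lowest ratios included transcription factors of the noradrenergic program and genes of secretion and excitability. Among genes at 5 FPKM or more in either genotype, *Pthlh*, *Disc1*, *Nxph1*, *Ecel1* and *St6galnac5* headed the list, and only *Ecel1* of these was abundant. *Ecel1* (mm9 chr1:89044230-89053096, minus strand), a neuronal membrane protein of the endothelin-converting enzyme family, was at 182 FPKM in wildtype and 33.0 FPKM in hypomorphic ganglia, 18.1% of wildtype. *Hmx1* (mm9 chr5:35731507-35742379, plus strand), a homeodomain factor that favours the noradrenergic over the cholinergic state, was at 366 and 108 FPKM, 29.5% of wildtype. The T-box factor *Tbx20* (mm9 chr9:24527648-24578746, minus strand) was at 24.6 and 7.20 FPKM, a ratio of -1.76. In each of these the difference was larger than that of *Isl1* itself, whose ratio was -0.96.

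Genes of secretion and excitability filled further places of the 15 lowest. *Pthlh*, which encodes parathyroid hormone-related protein, was at 6.88 FPKM in wildtype and 1.05 FPKM in the hypomorph (-2.60), and *Nxph1*, a secreted neurexin ligand, at 8.45 and 1.44 FPKM (-2.47). *Kcnmb2*, an auxiliary subunit of the calcium-activated BK potassium channel, was at 18.0 and 5.96 FPKM (-1.58). *Syt9*, a synaptotagmin that acts as a calcium sensor for vesicle fusion, was at 20.6 and 7.95 FPKM (-1.36). The scaffold gene *Disc1* stood at 10.5 and 1.70 FPKM (-2.56), and *St6galnac5*, a sialyltransferase of ganglioside synthesis, at 9.39 and 1.86 FPKM (-2.27). Further places of the 15 were held by *Lrrn4* (-1.31), *4833420G17Rik* (-1.30) and *6030419C18Rik* (-1.25). The zinc finger factor gene *Bcl11a* took the last place at -1.23, and the next gene outside was the heparan sulfate sulfotransferase gene *Hs3st5* at -1.20.

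The 15 highest ratios belonged to genes of mixed kinds, of which 5 were peptide, monoamine transporter or homeobox genes. *Vip* (mm9 chr10:4698927-4707323, minus strand), which encodes the vasoactive intestinal peptide of cholinergic sympathetic neurons, was at 18.0 FPKM in wildtype and 45.3 FPKM in hypomorphic ganglia, 2.51-fold higher. *Sst* (mm9 chr16:23889667-23890930, minus strand), the somatostatin gene, was at 74.9 and 151 FPKM, 2.02-fold higher. *Slc18a1* (mm9 chr8:71561610-71613134, minus strand), which encodes the vesicular monoamine transporter VMAT1 of endocrine cells, was at 18.2 and 44.4 FPKM, 2.44-fold higher. The homeobox gene *Tlx3* (mm9 chr11:33100752-33103588, minus strand) was at 32.8 and 72.3 FPKM and the homeobox gene *Shox2* at 26.8 and 51.3 FPKM, 2.20-fold and 1.91-fold higher.

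The other 10 genes were of further kinds. *Slc38a11*, a member of an amino acid transporter family, was at 9.75 and 26.3 FPKM (1.42), *Rgs5*, a regulator of G protein signalling known from pericytes, at 14.1 and 31.0 FPKM (1.13), and the ubiquitin ligase gene *Rnf128* at 7.59 and 17.3 FPKM (1.18). *Tcf24* (1.21), *Lrrc4c* (1.18), *Cers1* (1.07), *Wnt16* (0.99), *Galnt6* (0.98) and *Apoa2* (0.94) were at 6.42 FPKM or less in wildtype. *Gm15772* held the highest ratio, at 3.47 and 15.1 FPKM (2.09). It is a transcribed pseudogene that RefSeq also lists under the name of the ribosomal protein gene *Rpl26*, so that its value is uncertain. The receptor tyrosine kinase gene *Ret*, at 68.8 and 130 FPKM (0.91), stood just outside the 15, below *Shox2* (0.93).

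**Figure D2:**
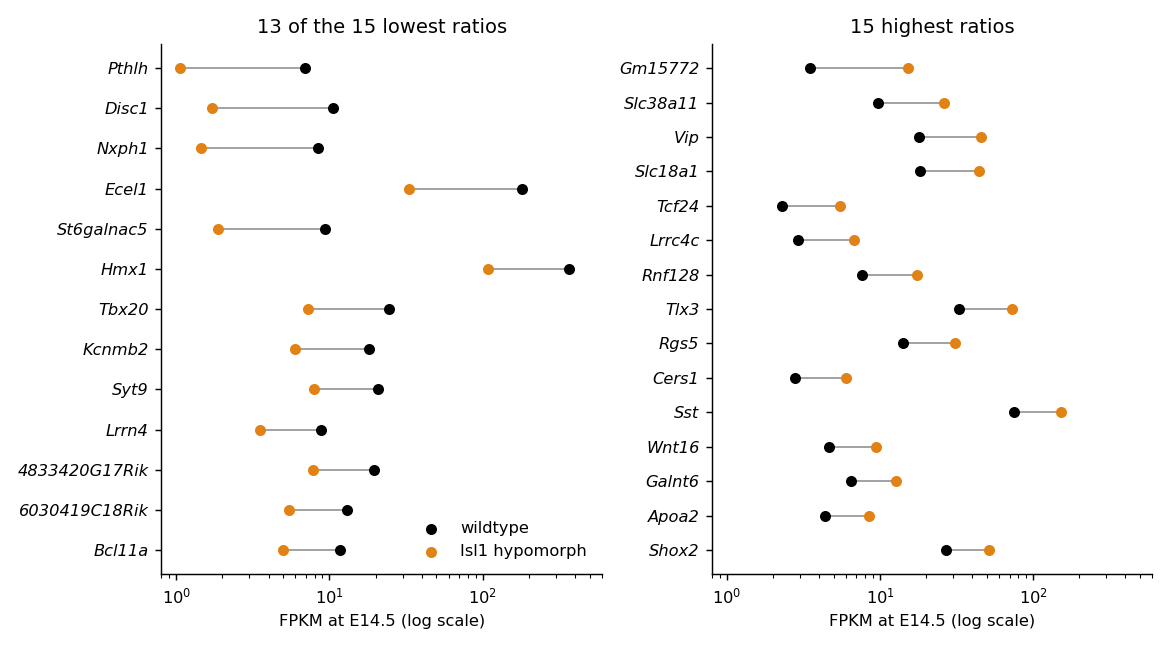
Of the 15 genes with the lowest ratios, 13 (left), and the 15 with the highest (right), among genes at 5 FPKM or more in either genotype, with the wildtype value in black and the hypomorph value in orange on a log axis of FPKM. Each dot is 1 combined value of 2 libraries, and *Ecel1* and *Hmx1* are the only genes in the left panel that exceed 100 FPKM in wildtype.

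A few genes below 5 FPKM had more extreme ratios, and most of these have near copies elsewhere in the genome. The 5 genes below -3 were *Gm12191* (-5.04), *Hba-a1* (-4.33), *Rnaset2a* (-3.84), *Rasgrp1* (-3.14) and *Tspan2os* (-3.02), and the 2 above 3 were *Hba-a2* (4.36) and *Pisd-ps1* (4.29), named after their values were seen. *Hba-a1* went from 3.04 to 0.0565 FPKM while its near-identical neighbour *Hba-a2* went from 0.0809 to 3.60 FPKM, and the study's methods state that only uniquely mapped reads were taken, so that the values of such copies are uncertain. *Gm12191* and *Pisd-ps1* are transcribed pseudogenes, *Rnaset2a* has the near copy Rnaset2b, and *Tspan2os* is an antisense gene, whose reads cannot be told from those of its partner without strand. *Rasgrp1*, a guanine nucleotide exchange factor for Ras, was at 4.20 and 0.386 FPKM.

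In absolute terms, the largest losses of FPKM were those of abundant cytoskeletal and neuronal genes whose ratios were modest. *Vim*, which encodes the intermediate filament protein vimentin, was at 1164 FPKM in wildtype and 862 FPKM in the hypomorph. The neuronal tubulin gene *Tubb3* was at 1212 and 921 FPKM, *Gap43*, a growth cone protein gene, at 1235 and 962 FPKM, and *Stmn2*, a microtubule regulator of axons, at 1182 and 916 FPKM. None of these 4 genes passed 1.5-fold. *Hmx1* was the only gene that stood both among the 15 lowest ratios and among the 8 largest losses. The 8 largest gains were those of *Hbb-y*, *Hbb-b1* and *Hbb-bs*, which encode beta-type globins of red cells, *Nefm* and *Nefl*, *Agtr2*, *H19* and *Cartpt*. *Nefm*, a neurofilament subunit gene, was at 1130 and 1424 FPKM, and *Agtr2*, the angiotensin II type 2 receptor gene, at 202 and 348 FPKM.

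Among 20 transcription factor genes of the sympathetic lineage, 5 were lower and 2 higher by at least 1.5-fold, beside 1.61% and 2.11% of all genes, with a median of -0.11 against 0.003 over all genes. Besides *Hmx1* and *Tbx20*, the lower ones were *Casz1* at 23.8 FPKM in wildtype and 10.8 FPKM in the hypomorph (-1.13), the LIM-domain cofactor gene *Lmo1* at 65.6 and 30.9 FPKM (-1.08), and *Phox2a* at 553 and 360 FPKM (-0.62). The higher ones were *Tlx3* and *Prox1*, the latter at 24.8 and 37.7 FPKM (0.60). The core factor gene *Hand2* differed little, at 474 and 492 FPKM (0.05). This list was chosen with earlier results of these data known. The study itself names *Hmx1*, *Tbx20*, *Lmo1*, *Phox2a*, *Tlx3* and *Prox1* as changed in this mutant. The counts therefore describe the list and cannot test it against all genes.

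The genes of catecholamine synthesis, storage, uptake and breakdown showed small differences, mostly toward lower values. Of 15 measured, 11 lay below 0, 0 were at least 1.5-fold lower and 1 was at least 1.5-fold higher, and the median was -0.12. *Gch1*, which makes the cofactor of tyrosine hydroxylase, was at 83.8 and 56.0 FPKM (-0.58), and *Th*, the rate-limiting enzyme of catecholamine synthesis, at 280 and 207 FPKM (-0.43). The enzyme genes *Ddc*, at 425 and 391 FPKM (-0.12), and *Dbh*, at 608 and 568 FPKM (-0.10), were nearer to 0. *Pnmt*, the enzyme that makes adrenaline from noradrenaline, was at 5.04 and 3.70 FPKM (-0.43). The 2 vesicular monoamine transporters differed from each other. *Slc18a2*, which encodes VMAT2, the form usual in neurons, was at 133 and 138 FPKM (0.05), while *Slc18a1* had a ratio of 1.28.

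Cholinergic genes had ratios on both sides of 0, and those past 1.5-fold were peptide genes. Of 11 measured, 2 were at least 1.5-fold higher and 0 at least 1.5-fold lower, beside 2.11% and 1.61% of all genes, with a median of -0.18. The 2 were the peptide genes *Vip* and *Sst*. The genes of acetylcholine itself lay on either side of 0. *Chat*, the enzyme that makes acetylcholine, was at 1.64 and 1.41 FPKM (-0.20), *Slc18a3*, its vesicular transporter, at 32.0 and 25.5 FPKM (-0.33), and *Slc5a7*, the choline transporter, at 1.84 and 2.70 FPKM (0.53). The receptor subunit gene *Lifr*, through which the cytokines that promote cholinergic traits act, was at 26.8 and 19.2 FPKM (-0.48).

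The study also set out a list of genes enriched in noradrenergic and a list of genes enriched in cholinergic sympathetic neurons. Of 40 noradrenergic-enriched genes measured, 9 were lower and 2 higher by at least 1.5-fold, beside background shares of 1.61% and 2.11%, and yet their median was -0.01, with 21 below 0. The 9 included *Nxph1*, *Hmx1*, *Tbx20*, *Insrr*, *Lmo1* and *Chgb*, and the 2 were *Slc18a1* and *Wscd1*. Of 42 cholinergic-enriched genes, 1 was lower and 7 higher by at least 1.5-fold, with a median of 0.02 and 20 below 0. *Vip*, *Tlx3*, *Sst*, *Shox2*, *Ret* and *Agtr2* were among the 7, and the 1 lower gene was *Dok5* (-0.61). In both lists a minority of members with large differences stood beside a majority near 0.

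The receptors for neurotrophic factors fell on both sides. Of 11 measured, 2 were at least 1.5-fold lower, and 1, *Ret*, was at least 1.5-fold higher, beside 1.61% and 2.11% of all genes. One of the lower genes was *Insrr*, at 4.05 FPKM in wildtype and 1.49 FPKM in the hypomorph (-1.38). It was in the list but belongs to the insulin receptor family and not to the neurotrophin or GDNF receptors. Others lay nearer 0: *Ntrk2*, the receptor for BDNF, was at 9.03 and 10.8 FPKM (0.25) and *Ntrk3*, the receptor for NT-3, at 16.0 and 18.3 FPKM (0.19). *Ngfr*, the low-affinity neurotrophin receptor, was at 49.5 and 38.1 FPKM (-0.38). *Gfra3*, the artemin receptor and partner of RET, was at 217 and 169 FPKM (-0.36), opposite in sign to *Ret*.

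Peptide genes were among the more divided groups. Of 21 listed, 14 were in the table, with a median of 0.21. Of these, 3 were at least 1.5-fold higher and 1 at least 1.5-fold lower, beside 2.11% and 1.61% of all genes. Besides *Vip* and *Sst*, *Cartpt* was higher, at 200 and 320 FPKM (0.68), and the lower gene was *Pthlh*. *Npy*, the peptide gene typical of noradrenergic neurons, was at 395 and 505 FPKM (0.36), and *Gal*, the galanin gene, at 45.9 and 34.7 FPKM (-0.40). The cargo and processing genes of dense-core vesicles were split in the same way. Of 13, *Chgb*, which encodes the granin secretogranin-1, was at 314 and 169 FPKM (-0.89), *Scg2*, which encodes secretogranin-2, at 10.3 and 18.9 FPKM (0.87), and *Chga*, the gene for chromogranin A, at 352 and 400 FPKM (0.18). The other 10 did not pass 1.5-fold.

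Genes of synaptic vesicle release lay below 0 almost throughout, by small amounts. Of 44 measured, 39 had a lower value in the hypomorph beside 49.3% over all genes, 3 were lower and 0 higher by at least 1.5-fold, and the median was -0.19. *Syt9*, *Syt1* and *Rph3a* were the 3. *Syt1*, the main calcium sensor of fast release, was at 71.0 FPKM in wildtype and 40.8 FPKM in the hypomorph (-0.80), and *Rph3a*, a Rab3 effector, at 11.1 and 6.58 FPKM (-0.75). Among the few members above 0, the SNARE gene *Snap25* was at 177 and 250 FPKM (0.50) and *Rab3c* at 41.9 and 55.0 FPKM (0.39). Of the 16 neurexins, neurexophilins, neuroligins and partners, *Nxph1*, *C1ql1* and *Nxph4* were at least 1.5-fold lower, *C1ql1* at 31.7 and 15.2 FPKM (-1.05) and *Nxph4* at 101 and 63.8 FPKM (-0.66). The neurexin-binding cerebellin genes *Cbln1* (0.43) and *Cbln2* (0.41) had the highest ratios of that list.

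Among receptors for acetylcholine, through which preganglionic fibres drive these neurons, 8 of 12 lay below 0, with a median of -0.24. *Chrna5*, an accessory nicotinic subunit, was at 19.1 and 10.9 FPKM (-0.80), and the muscarinic receptor gene *Chrm2* was at 2.86 and 1.75 FPKM (-0.68). *Chrna3* and *Chrnb4*, the subunits of the main ganglionic receptor, stood at 84.2 and 83.3 FPKM (-0.02) and at 23.1 and 25.9 FPKM (0.16). The accessory subunit thus differed more than the subunits it joins.

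Ion channel lists had medians near 0, with a few members past 1.5-fold. Of 50 potassium channel genes, 3 were lower and 6 higher by at least 1.5-fold, beside 1.61% and 2.11% of all genes, with a median of -0.02. *Kcnd2*, which carries the transient A-type current, was at 10.4 and 5.37 FPKM (-0.93). *Kcnj6* (1.06), *Kcna3* (0.77) and *Kcnip3* (0.75) had the highest ratios, all at 1.69 FPKM or less in wildtype. *Kcnj6* and *Kcnip3* were under 1 FPKM in wildtype (0.472 and 0.679), so the 1 FPKM limit forced them to be higher. Of 31 sodium, calcium and HCN channel genes, 1 passed 1.5-fold, *Cacna1e* at 3.82 and 2.24 FPKM (-0.74), and 21 lay below 0. Of 33 other ligand-gated channel and receptor genes, 2 were lower and 3 higher by at least 1.5-fold, beside 1.61% and 2.11% of all genes. The lower ones were *Gabbr2* (-0.88) and *P2rx3* (-0.63), and the higher ones *Htr1b* (0.87), *Gria1* (0.71) and *Gabra4* (0.70). *Gabra4*, at 0.620 FPKM in wildtype, was likewise forced to be higher. The intracellular calcium channel gene *Ryr2* was at 21.3 and 13.0 FPKM (-0.71).

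The axonal cytoskeleton was lower in sum and split within itself. Of 31 genes of axon growth and cytoskeleton, 24 lay below 0 and 1 passed 1.5-fold, *Ablim1* at 19.9 and 10.8 FPKM (-0.88), and the summed level was 14611 FPKM in wildtype and 12803 FPKM in the hypomorph. The intermediate filament genes of peripheral neurons differed among themselves. *Prph*, the peripherin gene, was at 921 and 651 FPKM (-0.50) and *Ina*, the internexin gene, at 507 and 348 FPKM (-0.54), whereas *Nefl* was at 1027 and 1241 FPKM (0.27). *Dpysl3*, which encodes a collapsin response mediator protein, was at 714 and 499 FPKM (-0.52). The neuritin gene *Nrn1* had the highest ratio of the list, at 3.99 and 5.36 FPKM (0.42).

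Surface molecules of growing axons had counts on both sides. Of 19 neuronal adhesion genes, 1 was lower and 3 higher by at least 1.5-fold, beside 1.61% and 2.11% of all genes. The lower gene was *Cntn3* (-0.69), at 0.980 FPKM in the hypomorph, so the 1 FPKM limit forced it to be lower. The higher genes were *Ntm* (0.82), *Negr1* (0.72) and *Cntnap2* (0.61), all at 6.11 FPKM or less in wildtype. The abundant adhesion genes had negative ratios, with *Ncam1* at 199 and 147 FPKM (-0.43) and *L1cam* at 191 and 150 FPKM (-0.34). Of 70 axon guidance genes, 4 were lower and 3 higher by at least 1.5-fold, beside 1.61% and 2.11% of all genes, with a median of -0.01. Of the lower ones, *Epha8* (0.798 FPKM in the hypomorph) and *Unc5d* (0.744) were forced to be lower by the same limit. *Rgmb*, a coreceptor of BMP signalling and ligand of neogenin, was at 79.5 and 47.1 FPKM (-0.76), and *Plxna2*, a semaphorin receptor subunit gene, was at 6.70 and 12.1 FPKM (0.84). Of 77 cadherins and protocadherins, 55 lay below 0, beside 49.3% of all genes, with a median of -0.13. In this list 3 were lower and 1 higher by at least 1.5-fold, beside 1.61% and 2.11% of all genes. Of the lower ones, *Pcdh15* (0.336 FPKM in the hypomorph) and *Cdh8* (0.812) were also forced to be lower by that limit. The median of the list turned to 0.01 among the members at 5 FPKM or more, and clustered protocadherins share exons, so that their counts are uncertain.

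Markers of most other cell types had higher values in the hypomorph. All 18 endothelial genes had a higher value in the hypomorph, with a median of 0.46 and a summed level of 173 FPKM in wildtype and 237 FPKM in the hypomorph, and 2 passed 1.5-fold, *Emcn* (0.63) and *Erg* (0.59). Of 18 erythroid genes, 16 lay above 0, and their sum was 5692 and 6908 FPKM, 1.46% and 1.81% of all FPKM. *Hbb-y*, the embryonic beta-type globin gene, was at 1353 and 1944 FPKM (0.52), and globin genes share near-identical stretches. All 14 macrophage genes were higher (83.8 and 101 FPKM in sum, median 0.27), as were all 14 of fibroblasts and mesenchyme (1685 and 1881 FPKM, median 0.20). The macrophage gene *Cd14* was under 1 FPKM in wildtype (0.604), so the 1 FPKM limit forced it to be higher. Of 9 smooth muscle and pericyte genes, 7 lay above 0 and 2 passed 1.5-fold, *Rgs5* and *Abcc9* (0.59), with sums of 185 and 200.3 FPKM. The difference between these sums rests on *Rgs5*, at 14.1 and 31.0 FPKM. The most abundant member, *Mcam*, was lower, at 90.3 and 77.1 FPKM (-0.23), as was *Des* (-0.15). Skeletal muscle genes were the exception, with 11 of 13 below 0 and sums of 693 and 632 FPKM, and 6 of 11 cartilage genes were in the table, at 36.5 and 34.2 FPKM. Not in the table were *Ptprc* of macrophages, *Ahsp* of red cells, *Cnn1* of smooth muscle, *Tcf21* of mesenchyme and *Acan* of cartilage. In bulk ganglia, fewer cells of a type and less RNA per cell cannot be told apart. The part of these cell types in the differences of the neuronal and cell cycle genes was not tested.

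Cell cycle genes lay almost wholly on the higher side. All 76 genes of mitosis had a higher value in the hypomorph, against 50.7% over all genes, with a median of 0.49, and their summed level was 1559 FPKM in wildtype and 2164 FPKM in the hypomorph, 38.9% more. The differences were small for single genes, since 12 of 76 passed 1.5-fold and the range ran from 0.04 for the checkpoint gene *Bub3* to 0.79 for the cohesin acetyltransferase gene *Esco2*. *Ndc80* and *Spc24*, subunits of the complex that holds microtubules at the kinetochore, were at 12.1 and 19.5 FPKM (0.68) and at 16.3 and 25.5 FPKM (0.64). Of 47 DNA replication genes, 45 were higher and 5 passed 1.5-fold, with a median of 0.48 and sums of 1030 and 1396 FPKM. *Chaf1b*, a subunit of the histone chaperone that follows the replication fork, was at 14.7 and 24.8 FPKM (0.75) and *Cdc6*, which loads the replicative helicase, at 4.16 and 6.97 FPKM (0.73). The members not higher were *Orc4* (-0.03) and *Rpa3* (-0.03).

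Promoters of these genes are shown because transcription in the cell cycle runs through a few short elements that can be read in them. The CCAAT box is bound by NF-Y, the cell cycle genes homology region (CHR, searched as TTTGAA) recruits the DREAM and MuvB complexes to mitotic genes, and the E2F core (searched as TTCCCGC or TTGGCGC) is typical of genes of the G1/S step. Both strands were searched in RefSeq promoters of build GRCm38.p6, from 250 bases before to 50 bases after a gene's start, and a reversed CCAAT box followed by CGC also counts as an E2F core. Capitals mark the CHR and CCAAT matches in the mitotic genes *Top2a* and *Cenpf* and the E2F matches in the replication genes *Chaf1b* and *Cdc6*. They are, in each list, the 2 members with the highest ratios of which exactly 1 promoter of the table holds these elements, and they were chosen after their values were seen. Promoters on 1 chromosome were passed over in this choice.
Top2a (chr11:99024140-99024439, minus strand): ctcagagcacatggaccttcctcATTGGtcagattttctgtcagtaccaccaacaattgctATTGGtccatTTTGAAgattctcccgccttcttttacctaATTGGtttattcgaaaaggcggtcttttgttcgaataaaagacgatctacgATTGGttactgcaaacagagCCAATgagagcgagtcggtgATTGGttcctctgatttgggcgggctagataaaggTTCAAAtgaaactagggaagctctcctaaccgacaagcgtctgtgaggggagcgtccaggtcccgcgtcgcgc
Cenpf (chr1:189688037-189688336, minus strand): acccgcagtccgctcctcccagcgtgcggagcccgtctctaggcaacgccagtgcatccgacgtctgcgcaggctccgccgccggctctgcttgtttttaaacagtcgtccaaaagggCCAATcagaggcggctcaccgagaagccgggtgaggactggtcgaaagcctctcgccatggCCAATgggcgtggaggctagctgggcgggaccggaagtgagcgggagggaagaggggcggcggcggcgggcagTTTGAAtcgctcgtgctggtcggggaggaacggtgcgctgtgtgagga
Chaf1b (chr16:93883651-93883950, plus strand): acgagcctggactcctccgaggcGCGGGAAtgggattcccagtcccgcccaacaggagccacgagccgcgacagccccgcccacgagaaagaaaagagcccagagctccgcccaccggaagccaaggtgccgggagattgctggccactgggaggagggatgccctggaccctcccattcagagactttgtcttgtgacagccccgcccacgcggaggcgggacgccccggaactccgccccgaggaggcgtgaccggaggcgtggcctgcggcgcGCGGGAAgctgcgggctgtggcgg
Cdc6 (chr11:98907901-98908200, plus strand): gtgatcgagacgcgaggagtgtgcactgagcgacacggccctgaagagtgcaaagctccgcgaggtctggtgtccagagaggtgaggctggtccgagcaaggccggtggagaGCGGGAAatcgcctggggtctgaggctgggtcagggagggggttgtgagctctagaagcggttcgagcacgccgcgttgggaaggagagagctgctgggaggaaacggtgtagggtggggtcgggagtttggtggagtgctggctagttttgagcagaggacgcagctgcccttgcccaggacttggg
*Top2a*, the topoisomerase that untangles sister chromatids, was at 66.3 and 101 FPKM (0.61) and held 8 matches, and *Cenpf*, a kinetochore protein gene, was at 14.3 and 21.7 FPKM (0.59) and held 3. *Chaf1b* held 2 E2F cores and *Cdc6* held 1.

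The 2 lists differed in which element their promoters held. A promoter was found for 64 of 76 mitotic genes and for 39 of 47 replication genes, and the background is 27025 genes with a promoter in the table. A CHR element was present in 70.3% of the mitotic genes, in 17.9% of the replication genes and in 20.2% of the 27025. A CHR element together with a CCAAT box was found in 56.3%, 7.69% and 7.97%. The E2F core had the opposite order, with 28.1% of mitotic genes, 64.1% of replication genes and 7.79% of the 27025. Of the genes compared in the ganglia, 78.8% had a promoter in the table, and of these 13.6% held a CHR element, 5.59% both elements and 14.3% the E2F core. A match is a description of the letters and not a site in use. For the 211 lower and the 277 higher genes a promoter was found for 78.2% and 77.3%. This is under the 80% set as the limit for giving shares, so none are given for them. The genes compared are under this limit as well, and their shares are given only as a second background.

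**Figure D3:**
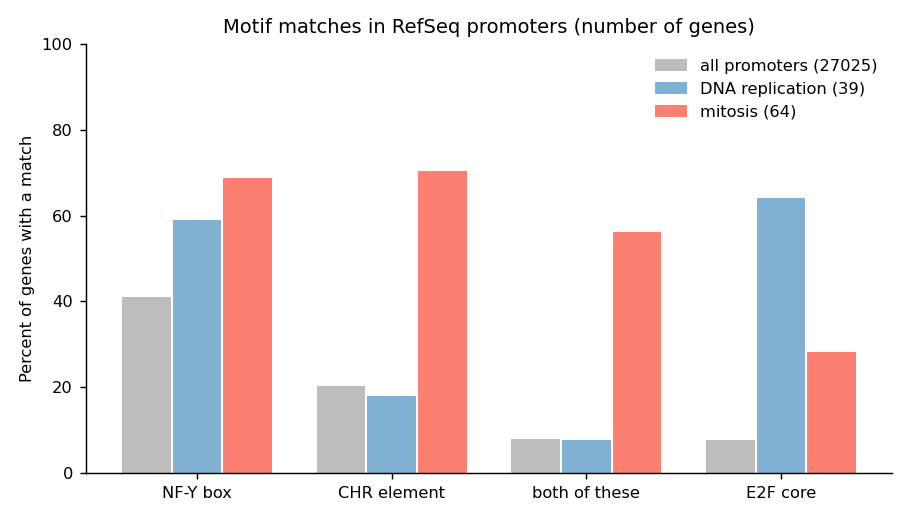
Percent of genes with an exact motif match in a RefSeq promoter, for all 27025 genes with a promoter (grey), 39 DNA replication genes (blue) and 64 mitotic genes (red), with bars starting at 0. The CHR element is most frequent in mitotic genes (70.3%) and the E2F core in replication genes (64.1%); NF-Y box stands for the CCAAT element.

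The other lists of the cell cycle machinery had smaller medians, also above 0. Of 43 DNA repair and checkpoint genes, 40 were higher and 7 passed 1.5-fold, beside 50.7% and 2.11% of all genes, with a median of 0.35. The list was led by the helicase gene *Hells* at 16.0 and 26.9 FPKM (0.75), *Clspn* at 8.85 and 14.8 FPKM (0.74) and *Chek1* at 9.42 and 15.6 FPKM (0.72). Of 19 nucleotide supply genes, 16 were higher (median 0.18), with *Rrm2*, the S-phase subunit of ribonucleotide reductase, at 54.4 and 89.3 FPKM (0.72). Of 33 genes of the G1 step, 28 were higher and 2 passed 1.5-fold, *Ccne2* at 7.59 and 12.2 FPKM (0.68) and *E2f1* at 15.9 and 23.9 FPKM (0.59). *Ccnd1*, the most abundant cyclin gene there, was at 782 and 809 FPKM (0.05), and the cell cycle inhibitor gene *Cdkn1c* at 308 and 292 FPKM (-0.08). *Myc* was at 44.4 and 32.6 FPKM (-0.44) and *Mycn* at 63.6 and 54.6 FPKM (-0.22). The replication-dependent histones, whose transcripts mostly lack the polyA tail selected in these libraries, had a median of 0.19 with 14 of 20 above 0. Their sums were nearly equal, at 156 and 155 FPKM. At 1.5-fold, 5 were higher and 2 lower, beside 2.11% and 1.61% of all genes. The highest, *Hist1h2bk*, *Hist1h4k* and *Hist1h3e*, were under 1 FPKM in wildtype, so the 1 FPKM limit forced them to be higher. It likewise forced *Hist1h4h* (0.707 FPKM in the hypomorph) to be lower. The most abundant, *Hist3h2ba* (-0.10) and *Hist3h2a* (-0.15), were lower.

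Lists for cell death and signalling had medians close to 0, and neural crest and glial genes lay mostly above 0 by small amounts. None of the 16 p53 target genes and none of the 26 *Bcl2* family and caspase genes passed 1.5-fold, with medians of 0.01 and -0.02, although *Casp8* was at 2.45 and 3.50 FPKM (0.50) and *Diablo* at 96.2 and 68.5 FPKM (-0.49). Of 11 feedback genes of ERK signalling, *Etv5*, a transcription factor gene induced by growth factor receptors, was at least 1.5-fold lower, at 7.17 and 4.63 FPKM (-0.62). Of 20 immediate early genes, *Ier3* was at least 1.5-fold lower (-0.63), and the median was 0.01. None of 26 Notch pathway genes passed 1.5-fold (median 0.09), with *Dtx1* lowest at -0.50. Neural crest and glial genes had 23 of 25 values above 0, beside 50.7% of all genes, and 0 past 1.5-fold. Their median was 0.11 and their sums were 645 and 728 FPKM. *Fabp7*, the fatty acid binding protein of glial progenitors, was at 257 and 295 FPKM (0.20), and *Ednrb*, the endothelin B receptor gene, at 85.2 and 105 FPKM (0.31).

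Lipid synthesis was lower as a group. All 23 sterol synthesis genes measured had a lower value in the hypomorph, with a median of -0.33 and sums of 1511 and 1196 FPKM, and 1 of 23 passed 1.5-fold. The mevalonate enzyme gene *Mvd* was at 53.5 and 36.6 FPKM (-0.55) and the lanosterol synthase gene *Lss* at 57.3 and 39.5 FPKM (-0.54). *Srebf2*, the master regulator of this pathway, was at 156 and 132 FPKM (-0.24). Of 13 fatty acid synthesis genes, 11 were lower and 0 passed 1.5-fold (median -0.21), with the abundant desaturase gene *Scd2* at 555 and 445 FPKM (-0.32). Motif shares were not drawn for sterol genes, since a promoter was found for only 69.6% of them.

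Energy metabolism and protein synthesis differed less. Of 30 genes of glycolysis and the hypoxia response, 24 lay below 0 and 3 were at least 1.5-fold lower, with a median of -0.12. The shares over all genes were 49.3% and 1.61%. *Egln3*, an oxygen-sensing prolyl hydroxylase that takes part in the death of sympathetic neurons deprived of nerve growth factor, was at 123 and 72.5 FPKM (-0.77), the neuronal glucose transporter gene *Slc2a3* at 138 and 90.2 FPKM (-0.61), and *Ankrd37* at 7.14 and 4.65 FPKM (-0.61). Of 81 genes of oxidative phosphorylation, 1 passed 1.5-fold (*Cox8b*, -1.04) and the median was -0.03. The 74 ribosomal protein genes had a median of 0.09 and the 22 Hox genes 0.14, with *Hoxb5* (0.59) the only Hox gene past 1.5-fold. Many ribosomal protein genes have pseudogene copies, so that their values are uncertain.

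**Figure D4:**
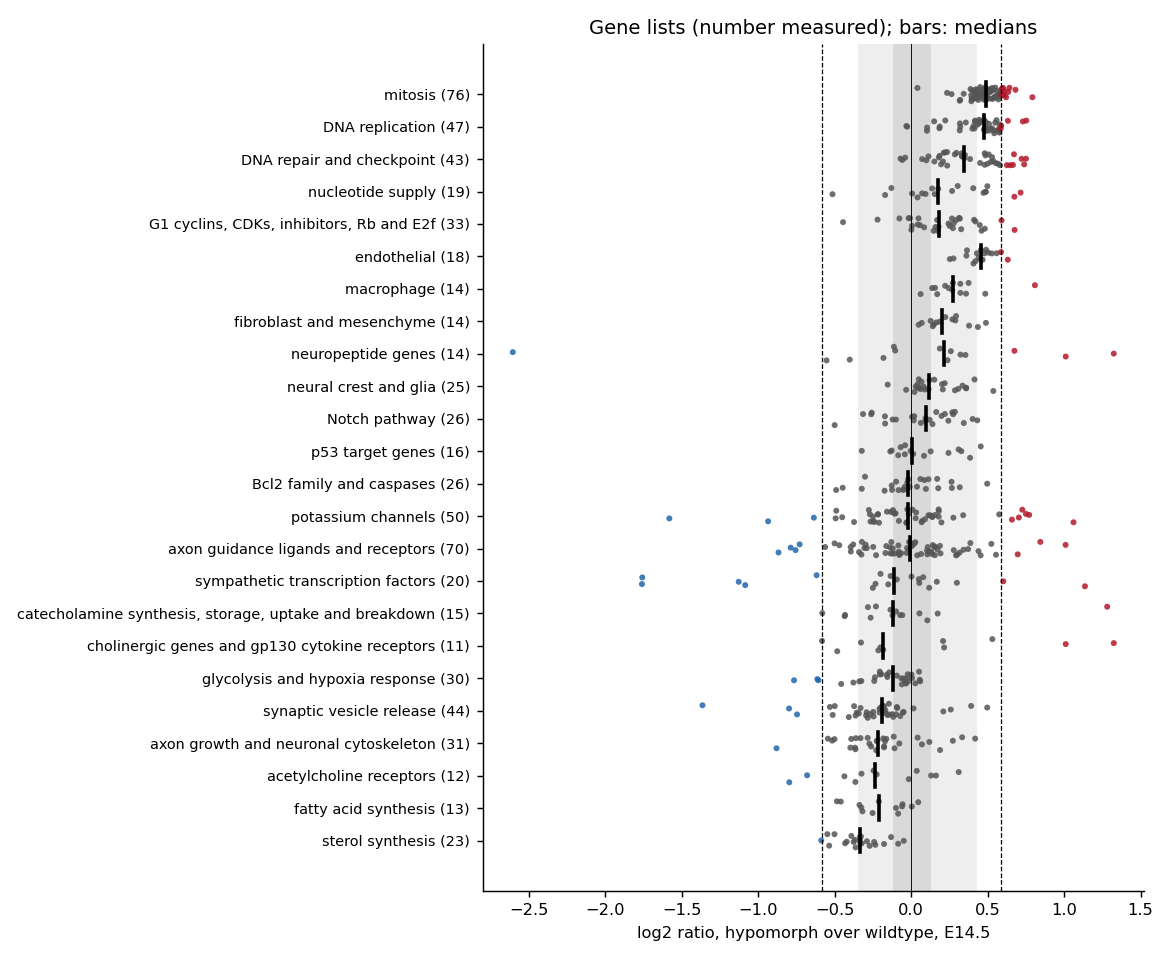
Log2 ratios of hypomorph over wildtype for the members of 24 lists, 1 point per gene, with black bars at the list medians, dashed lines at 1.5-fold, with shading between the quartiles and between the outer 5% points of all 13127 genes. Mitosis (median 0.49) and DNA replication (0.48) lie to the right as tight groups, sterol synthesis (-0.33) to the left, and sympathetic transcription factors spread from -1.76 to 1.14.

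The same genes were read in the E11.5 table, where CKO ganglia were compared with controls. The E11.5 comparison shares no sample with the E14.5 one, its table was normalized separately, and stage, allele and dissection differ together and cannot be told apart. At E11.5, 30.6% of 13221 genes passed 1.5-fold, with 12.1% lower and 18.6% higher, many more than at E14.5. The 2 columns of that table were unequal, summing to 453893 FPKM in the control and 595824 FPKM in the CKO over these genes. The 16 erythroid genes in both tables summed to 10921 and 69212 FPKM there. The part of this in the E11.5 counts was not tested. Of the 211 lower genes at E14.5, 139 were in the E11.5 table, of which 41 were lower there (29.5%, and 2.64% of the 1555 lower at E11.5) and 42 higher (30.2%, and 2.04% of the 2063 higher at E11.5). Of the 277 higher genes, 238 were in it, of which 83 were higher (34.9%, and 4.02%) and 79 lower (33.2%, and 5.08%). Over all 12551 genes in both, 12.4% were lower and 16.4% higher. In each class the E11.5 values were split nearly evenly between the directions.

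Some of the leading genes had the same sign at both stages. *Isl1* was at 133 FPKM in the E11.5 control and 40.0 FPKM in the CKO (-1.73), *Lmo1* at 43.2 and 4.23 FPKM (-3.32), *Egln3* at 32.8 and 2.13 FPKM (-3.89), *Kcnd2* at 12.6 and 4.21 FPKM (-1.56) and *Kcnmb2* at 5.90 and 2.21 FPKM (-1.38). Other genes had opposite signs. *Vip* was at 26.9 FPKM in the E11.5 control and 7.18 FPKM in the CKO (-1.89), and the homeobox genes *Tlx3* (-1.54), *Shox2* (-2.38) and *Prox1* (-2.29), each higher at E14.5, were lower there. *Casz1*, lower at E14.5, was at 4.10 and 4.40 FPKM at E11.5 (0.10).

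*Hmx1* and *Ecel1* had far lower values in the E11.5 control than in wildtype ganglia at E14.5. *Hmx1* was at 4.88 FPKM in the E11.5 control, beside 366 FPKM in wildtype ganglia at E14.5, and *Ecel1* at 9.91 beside 182 FPKM. Of the 15 genes with the lowest ratios, 14 were in both tables, and 13 of these had a wildtype level at E14.5 at least 1.5-fold above the E11.5 control. Among all 139 lower genes in both tables it was 77.0%, among the 238 higher genes 13.4% and among all 12551 genes 29.3%. Taken from the hypomorph value in place of the wildtype value, the shares were 47.5%, 39.1% and 27.2%. The wildtype value enters both ratios, and the tables were normalized separately, so these shares are given as levels side by side only. The tables also differ in makeup. The 72 ribosomal protein genes in both summed to 57284 FPKM in the E11.5 control and to 8872 FPKM in wildtype at E14.5. The part of this in the shares was not tested.

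The mitosis, DNA replication and DNA repair lists had medians of opposite sign at the 2 stages. The median of the mitosis list was 0.49 at E14.5 and -0.86 at E11.5, that of DNA replication 0.48 and -0.64, and that of DNA repair and checkpoint 0.35 and -0.87. The sympathetic transcription factors had medians of -0.11 and -1.27, and 16 of 20 were at least 1.5-fold lower at E11.5. Neural crest and glial genes had 0.11 and 1.01, and erythroid genes 0.45 and 3.47. Sterol synthesis was below 0 at both stages (-0.33 and -0.31), as were synaptic vesicle release (-0.19 and -0.45) and axon growth (-0.22 and -0.47). Endothelial genes were above 0 at both (0.46 and 0.49). Over all genes the quartiles were -0.11 and 0.12 at E14.5 but -0.29 and 0.44 at E11.5. Like medians thus held different places among all genes at the 2 stages. Of 23 sterol synthesis genes, 23 lay below 0 at E14.5 and 15 at E11.5. All 18 endothelial genes lay above 0 at both.

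**Figure D5:**
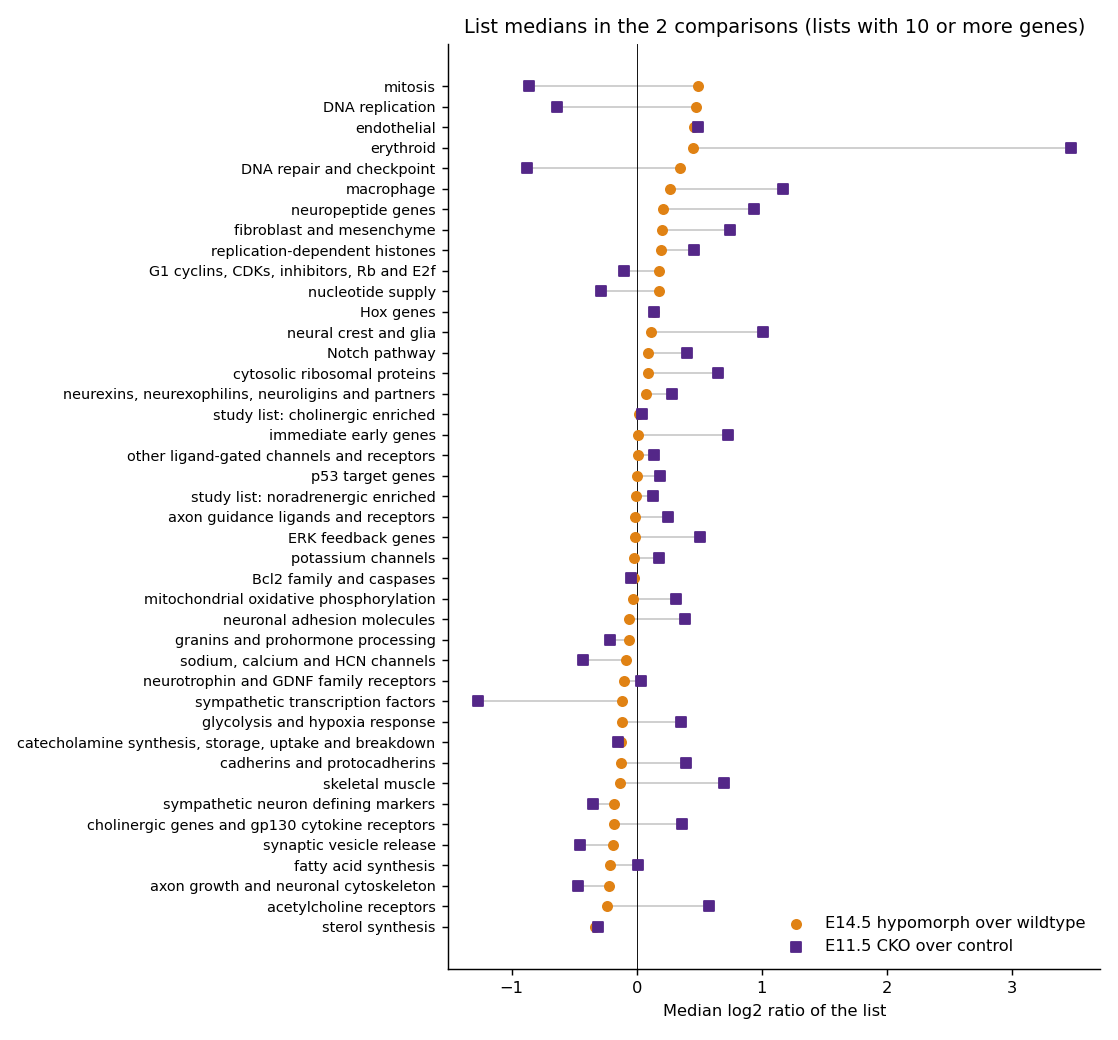
Median log2 ratio of each list with 10 or more genes at both stages, with orange circles for hypomorph over wildtype at E14.5 and purple squares for CKO over control at E11.5, joined by grey lines. Mitosis, DNA replication and DNA repair stand on opposite sides of 0 at the 2 stages, whereas sterol synthesis and endothelial genes lie near the same value. The ratios of all genes spread more widely at E11.5, so equal medians are not equal places among all genes.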

How the data were processed

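RNA-seq of sympathetic ganglia pooled from about 10 embryos per library was used, with 2 libraries each of wildtype and *Isl1* hypomorphic embryos at E14.5 and of control and CKO embryos at E11.5. PolyA RNA was sequenced, and the authors ran cuffdiff, so that each deposited FPKM value stands for both libraries of a genotype together. Genes under 1 FPKM in both genotypes are absent from the tables. The submitters' processing notes name Bowtie, TopHat 1.3.1, Cuffdiff 1.3.0 and dm3, a fly build, whereas the study's methods name mm9 and all symbols are of mouse genes. The tables also hold the authors' own log2 ratios and p-values, which were not used. The FPKM columns summed to 389187 in wildtype and 382408 in hypomorphic ganglia over the 13127 genes compared. Read numbers are not given, so no precision could be stated.

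Log2 ratios of hypomorph over wildtype were computed with 0.1 FPKM added, and a difference of 1.5-fold was counted. With 1 combined value per genotype no test was made. Genes whose symbol had become a spreadsheet date (23) were kept in the counts and not named. The members and the 47 gene lists were chosen with earlier results of these data known, and 2 of the lists come from the study. Named were *Isl1*, the 15 lowest and 15 highest ratios among genes at 5 FPKM or more in either genotype, the 8 largest differences in FPKM on either side, in each list the 3 lowest, the 3 highest and the 2 most abundant members, and genes the study names for this mutant. A few genes that this rule names are not reported here. Genes named outside this rule are *Top2a*, *Cenpf*, *Hs3st5* and those stated as chosen after their values were seen. Gene positions are from the GENCODE annotation of mm9, and promoters from RefSeq (GRCm38.p6), matched by symbol or by a synonym of 1 gene. Counting and list steps were tested on simulated data. Python 3.11.15, numpy 2.4.6, pandas 2.3.3 and matplotlib 3.10.9 were used. Alternatives were another pseudocount, filters on low values, other scalings, other folds and all genes of the table.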

Additional observations from a re-analysis of the deposited data

Results flagged for a closer look

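Some genes and lists differed in opposite directions at the 2 stages, past 1.5-fold for genes and past 0.3 for list medians, and none of these differences could be tested, since each stage has 1 combined value per genotype. Stage and allele differ together, and the E11.5 pools differed in their erythroid level, as given above. Genes higher in the E14.5 hypomorph and lower in the E11.5 CKO were *Vip* (log2 ratios 1.32 and -1.89), *Tcf24* (1.21 and -1.83), *Tlx3* (1.14 and -1.54), *Rgs5* (1.13 and -1.67), *Wnt16* (0.99 and -1.22), *Shox2* (0.93 and -2.38), *Agtr2* (0.79 and -1.41) and *Prox1* (0.60 and -2.29). *Agtr2* was at 583 FPKM in the E11.5 control and 219 FPKM in the CKO, and at 202 FPKM in wildtype and 348 FPKM in hypomorphic ganglia at E14.5. Genes lower at E14.5 and higher at E11.5 were *Pthlh* (-2.60 and 1.38), *Nxph1* (-2.47 and 1.45) and *Lrrn4* (-1.31 and 1.61). *Pthlh* was at 0.376 FPKM in the E11.5 control and 1.14 FPKM in the CKO, near the lowest level that the tables keep. Among the lists, mitosis had medians of 0.49 at E14.5 and -0.86 at E11.5, DNA replication 0.48 and -0.64, and DNA repair and checkpoint 0.35 and -0.87.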

How the results depend on the processing

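The counts of genes past the threshold depended on how low values were treated. With 1 FPKM added in place of 0.1, 118 genes were lower and 107 higher, so that 47.6% of them were higher in place of 56.8%, and the median of the erythroid list was 0.33. Among genes at 5 FPKM or more in either genotype, 103 were lower and 123 higher, and list medians became 0.36 for neuropeptides, -0.12 for acetylcholine receptors and 0.13 for immediate early genes. The sign changed under this filter for neurotrophin and GDNF family receptors (0.0059), neurexins and partners (-0.092), cadherins and protocadherins (0.012) and cartilage (-0.16). With 1 FPKM required in both genotypes, the medians were 0.12 for sensory neuron genes and -0.062 for epithelial genes (a change of sign). At 2-fold, 53 genes were lower and 37 higher (41.1% higher), and at 1.2-fold 1110 and 1516. The other counts stayed within 1.5 times, and 269 list medians moved by less than 0.1 under these alternatives, beside the 10 given here. Of the 269, 8 changed sign, all from medians within 0.03 of 0, and 6 of these did so when scaled without the erythroid list. Fewer genes or members were left by the filters, and the cause of the other changes was not tested. Centring on the median gave 214 lower and 273 higher genes, and scaling without the erythroid list 188 and 331. No paired analysis was possible because the columns hold 2 combined libraries and no single-library values, and leaving out each library in turn was not run for the same reason.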

Other observations

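Transcripts that mark the sex of the embryos were present in both pools, whose sex is not given. *Xist*, transcribed from the inactive X chromosome of females, was at 66.1 FPKM in wildtype and 70.9 FPKM in hypomorphic ganglia (log2 ratio 0.10). The Y-linked genes had lower values in the hypomorph, with *Eif2s3y* at 15.9 and 11.8 FPKM (-0.43), *Kdm5d* at 4.40 and 3.27 FPKM (-0.42), *Uty* at 3.92 and 2.84 FPKM (-0.45), and *Ddx3y* at a log2 ratio of -0.16. None of these passed 1.5-fold. They were named after their values were seen, and their part in any difference between the genotypes was not tested.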
